A study of Homo sapiens with 5 samples.

Results

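The genes described here are 40 named genes of the integrated stress response, the pathway that leads from phosphorylation of the translation factor eIF2 to the transcription factor ATF4 and its targets. They were picked by symbol for their known place in that pathway, with earlier results of these data known. For that reason no test of the list as a whole was run. All 40 were found among the 64252 gene identifiers of the count table by their GENCODE symbol, and all 40 passed the filter on low counts, as did 15341 genes in all. RNA-seq counts were available for 5 libraries of RPE-1 cells, a human retinal pigment epithelial line immortalized with telomerase. Of these, 3 came from cells given the ON-TARGET Control #1 siRNA (siCtrl) and 2 from cells given a pool of ON-TARGETplus siRNAs against FAM53C (siFAM53C). In both groups the cells were genotype WT, the siRNA was used at 5 µM with Lipofectamine RNAiMAX, and polyA RNA was collected at 48 hr.

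Every library therefore comes from transfected cells of 1 line, and with a single siRNA pool an effect of the knock-down cannot be told apart from an effect of the pool itself. Nothing in the labels says that libraries of a group are separate cultures, so p-values measure only the spread between these libraries. A lower level in bulk RNA can mean fewer cells with the transcript or less of it per cell, and these cannot be told apart.

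Cells phosphorylate the alpha subunit of eIF2 (EIF2S1) through kinases that sense heme shortage or mitochondrial trouble (EIF2AK1, also HRI), unfolded protein in the endoplasmic reticulum (EIF2AK3, also PERK) or uncharged tRNA (EIF2AK4, also GCN2). Bulk translation then slows, while ATF4 is translated better because of short reading frames in its leader, so that much of the control of ATF4 is not seen in its transcript level. ATF4, often paired with C/EBP proteins, binds promoter elements of genes for amino acid synthesis, amino acid transport and tRNA charging, and PPP1R15A (GADD34) closes the loop by directing a phosphatase to eIF2.

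The libraries held between 19260124 and 25615415 counts. FAM53C was at 60.9, 59.7 and 57.6 CPM (counts scaled to library size) in siCtrl 1, 2 and 3 and at 14.2 and 22.3 CPM in siFAM53C 1 and 2 (log2 fold change −1.71, SE 0.19, edgeR adjusted p = 0.003625). The libraries also differed along another line. On the first principal component, which held 39.8% of the variance, siCtrl 3 (33.7) and siFAM53C 2 (44.9) lay away from siCtrl 1 (−31.5) and siCtrl 2 (−47.4), with siFAM53C 1 at 0.264. Both siCtrl 3 and siFAM53C 2 carry the number 3 in the deposited column names, although the sample title calls the latter replicate 2, and this division is called the library split below. The labels do not say what the number stands for. The epithelial keratins KRT8 and KRT18 ranged from 236 to 327.5 CPM and from 148 to 182 CPM, and KRT7 from 5.8 to 10.6 CPM. Among the pigment epithelium markers, MITF ranged from 34.0 to 48.8 CPM and OTX2 from 13.5 to 17.1 CPM. BEST1, RLBP1, PMEL and TYR were at 1.23 CPM or less in every library. RPE65, a defining gene of mature pigment epithelium, was listed at 0 in all 5 libraries. Of 7 markers of blood, endothelium, neurons and other epithelia, CD3E and CDH5 were at 0 and none of the others was above 1.05 CPM in any library.

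Few of the 40 genes passed the test between siFAM53C and siCtrl, and those that did were lower. The cystine transporter gene SLC7A11 and the transcription factor gene CEBPG fell, and no member rose (edgeR quasi-likelihood test, Benjamini-Hochberg adjustment over all genes tested, threshold 0.05 on the adjusted p). Over all genes tested, 3.47% were called lower (533 genes) and 0.489% higher (75 genes), or 415 and 121 genes when library totals replaced the TMM factors. Before adjustment, 10 members were lower and 0 higher at p under 0.05, as were 10.5% and 6.61% of all genes. DESeq2 called 8 members lower and 0 higher (all genes 6.98% and 2.02%), and edgeR without siCtrl 3 called 10 lower and 0 higher (all genes 5.91% and 2.76%). Below 0 on the log2 fold change scale were 33 of the 40, or 82.5%, against 48.2% of all genes, and the median log2 fold change of the members was −0.23 against 0.02 for all genes. In 11 members both siFAM53C libraries lay below all 3 siCtrl libraries, and in 0 above; over all genes these arrangements held for 18.8% and 16.7%.

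The library split moved with the same genes, also among the controls alone. Of the 3 siCtrl libraries, siCtrl 3 was the lowest for 33 of the 40 members (82.5%, against 40.1% of all genes), and its median difference from siCtrl 1 and 2 was −0.42 on the log2 CPM scale. Likewise siFAM53C 2 was below siFAM53C 1 for 30 of 40 (75.0%, against 49.3%), with a median difference of −0.27. For 26 of the 40 genes the gap between siCtrl 3 and the other controls was larger than the log2 fold change between siRNAs (65.0%, against 55.9% of all genes). Many members were therefore low in siCtrl 3 as well as in the siFAM53C libraries, and the part of the split in each difference was not tested. When a term for the split was added to the edgeR model, 15 members were called lower and 1 higher, where 10.7% of all genes were called lower and 6.76% higher, and the median of the members was −0.14. Differences were also taken on each side of the split. The median was −0.27 between siFAM53C 1 and the mean of siCtrl 1 and 2, and −0.11 between siFAM53C 2 and siCtrl 3, and 26 members were below 0 on both sides (65.0%, against 33.2% of all genes), with 7 above 0 on both (17.5%, against 36.1%).

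**Figure D1:**
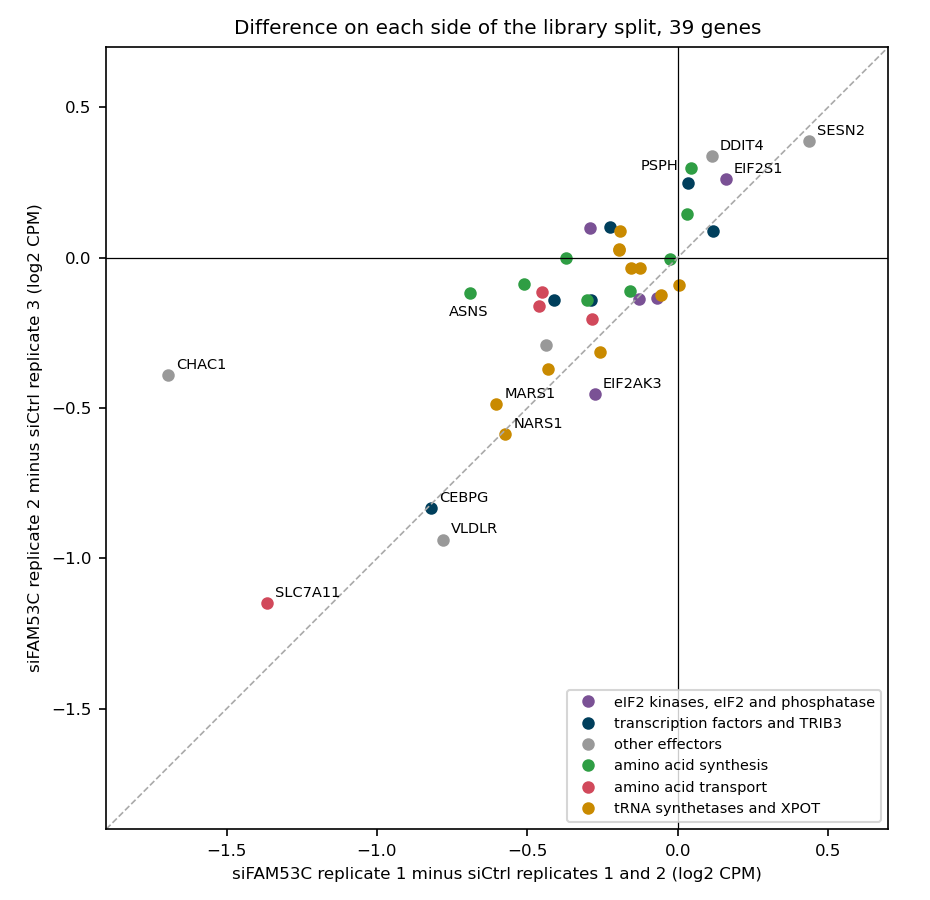
Difference in log2 CPM between siFAM53C and siCtrl on each side of the library split, 1 point per gene, coloured by role: the x axis compares siFAM53C 1 with the mean of siCtrl 1 and 2, the y axis siFAM53C 2 with siCtrl 3, and the dashed line marks equal differences. SLC7A11, CEBPG, VLDLR, NARS1 and MARS1 lie near the line, CHAC1 and ASNS lie far from it, and CARS1 (−1.47 and 4.39) is left out of the 39 genes drawn.

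The promoters of the members show which genes carry the letters that ATF4 and C/EBP proteins are known to bind together. The core of that element (the C/EBP-ATF response element, also called the amino acid response element) was searched as TGATGNAA on either strand, its reverse complement being TTNCATCA, in RefSeq windows from 250 bases before to 50 bases after the start site (GRCh38.p14). A window was at hand for 34 members and 12 of them held the core (35.3%). Counted the same way per gene, 1217 of 27305 RefSeq symbols (4.46%) and 291 of 10632 tested genes with a window (2.74%) held it. The members were picked for their place in the ATF4 pathway, so the higher share is no independent result. The 12 are printed from the gene's own strand, 5′ to 3′, so that the members with the core can be found again beside their values, with the core in capitals.

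CEBPG, chr19:33374071-33374078: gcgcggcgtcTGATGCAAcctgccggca
CHAC1, chr15:40953262-40953269: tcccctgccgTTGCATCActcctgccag
ASNS, chr7:97872469-97872476: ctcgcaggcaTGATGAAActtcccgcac
SLC7A1, chr13:29595674-29595681: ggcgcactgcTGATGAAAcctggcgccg
SLC3A2, chr11:62881736-62881743: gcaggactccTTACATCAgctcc
AARS1, chr16:70289686-70289693: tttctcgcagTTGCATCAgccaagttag
CARS1, chr11:3057418-3057425: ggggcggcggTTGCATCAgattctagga
GARS1, chr7:30594845-30594852: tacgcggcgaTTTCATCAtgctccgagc
IARS1, chr9:92293703-92293710: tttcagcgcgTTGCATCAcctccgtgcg
MARS1, chr12:57488064-57488071: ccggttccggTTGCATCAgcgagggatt
NARS1, chr18:57621815-57621822: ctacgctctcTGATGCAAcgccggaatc
TARS1, chr5:33440967-33440974: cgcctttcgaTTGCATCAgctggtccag

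In 6 of these the core reads TTGCATCA, and in CEBPG and NARS1 the same letters run on the gene's own strand as TGATGCAA. ASNS and SLC7A1 share TGATGAAA, and GARS1 and SLC3A2 hold TTTCATCA and TTACATCA. A match of letters is a description, not a measured site. The cores of the synthetases lay close to the start, between positions −33 and 15 for 6 of 7, and at −187 for AARS1. Among other cytosolic synthetase genes and their scaffold, which are not members, 0 of 9 windows held the core, and among mitochondrial synthetases 1 of 14, the 1 being YARS2. Among other ATF4 targets 8 of 20 windows held it, a share near that of the members. Of 11 windows of member synthetases and XPOT, 7 held it.

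The 12 genes with the core had a median log2 fold change of −0.37 (−0.36 with the split term), and 11 of them were below 0. The 22 members with a window and no core had a median of −0.22 (−0.13 with the split term), and 18 of them were below 0. With the split term 10.7% of all genes were called lower. Of the members called lower with it, 8 held the core and 6 had a window without it, and SLC7A11 has no window here. The difference between these lists was not tested, since genes are not replicates. No window was at hand for SHMT2, SLC7A11, EIF2AK1, YARS1, PYCR1 or PSPH.

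The upstream arm of the pathway held 5 members, and none was called in either model. Over all genes 3.47% were called lower and 0.489% higher, or 10.7% and 6.76% with the split term. The kinases EIF2AK1, EIF2AK3 and EIF2AK4 had log2 fold changes of −0.08 (SE 0.11), −0.29 (SE 0.23) and −0.18 (SE 0.14). EIF2AK3 was at 15.9, 14.8 and 22.4 CPM in the siCtrl libraries and at 12.6 and 16.3 CPM in siFAM53C 1 and 2, so the groups overlapped (adjusted p = 0.5968). Unlike most members it was highest, not lowest, in siCtrl 3. EIF2S1, the kinases' substrate, was 0.17 higher (SE 0.12) and PPP1R15A was 0.21 lower on the log2 scale (log2 fold change −0.21, SE 0.19), both overlapping. Of 12 further genes of the eIF2 machinery, all tested, 0 were called, with a median of 0.03. At an unadjusted p under 0.05, 2 of them were higher, against 6.61% of all genes. In the model with the split term EIF2B4, a subunit of the exchange factor that reloads eIF2, and GCN1, the partner of EIF2AK4 at the ribosome, were called higher (log2 fold changes 0.34 and 0.26, adjusted p = 0.04702 and 0.02558). In that model 6.76% of all genes were called higher.

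ATF4, the central factor, had the highest level of the 40 genes per length, 217 ± 46.9 CPM per kb of its canonical transcript in siCtrl (SD, n = 3). In CPM it stood at 355, 337 and 232 in siCtrl 1, 2 and 3 and at 260 and 211 in siFAM53C 1 and 2. The lowest control thus lay between the siFAM53C libraries, and the log2 fold change of −0.39 (SE 0.20) was not called (adjusted p = 0.3815). It was −0.41 between siFAM53C 1 and siCtrl 1 and 2, and −0.14 between siFAM53C 2 and siCtrl 3. With the split term it was −0.30 and called (adjusted p = 0.02487).

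CEBPG encodes a small C/EBP protein that pairs with ATF4, and it fell to 0.544 of its control level. Its levels were 40.9, 40.3 and 32.8 CPM in the siCtrl libraries against 22.9 and 18.4 CPM with siFAM53C, groups that did not overlap (log2 fold change −0.88, SE 0.16, adjusted p = 0.02872). The difference was −0.82 and −0.83 on either side of the split. The call was lost when siCtrl 1, siCtrl 2, siFAM53C 1 or siFAM53C 2 was left out (adjusted p from 0.09 to 0.2073, log2 fold changes from −1.05 to −0.73), and was kept only without siCtrl 3. The promoter window of CEBPG is given whole up to its start site (chr19:33373863-33374112, plus strand), as it belongs to the member that was called and holds the core, at position −42 from the start:

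CEBPG: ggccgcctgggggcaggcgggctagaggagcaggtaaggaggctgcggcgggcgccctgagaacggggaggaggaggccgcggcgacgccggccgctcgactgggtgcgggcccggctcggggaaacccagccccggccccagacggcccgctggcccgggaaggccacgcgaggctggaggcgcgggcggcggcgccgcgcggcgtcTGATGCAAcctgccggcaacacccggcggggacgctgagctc

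The other factors did not pass the test. DDIT3 (CHOP), the factor tied to cell death after lasting stress, was at 6.79, 6.65 and 6.60 CPM in siCtrl and at 5.48 and 5.98 CPM in siFAM53C. These groups did not overlap, but the log2 fold change of −0.22 had an SE of 0.22 (adjusted p = 0.6915). DDIT3 and MARS1 overlap on chromosome 12, on opposite strands, and 413 exon bases of DDIT3 face an exon on the opposite strand. DDIT3 held 126 to 160 counts per library and MARS1 2996 to 5862. The strand setting of the counting is not known, and whether reads of MARS1 enter the DDIT3 value was not tested. ATF5, a relative of ATF4 that is also controlled by reading frames in its leader, was at 42.5, 40.7 and 49.3 CPM against 45.1 and 52.4 CPM (log2 fold change 0.14, SE 0.13, adjusted p = 0.6673). TRIB3, a pseudokinase that feeds back on ATF4, was at 43.7, 46.9 and 24.1 CPM against 38.7 and 25.8 CPM (log2 fold change −0.24, SE 0.32, adjusted p = 0.7759). TRIB3 thus followed the library split, with siCtrl 3 below both siFAM53C libraries. CEBPB stood at 97.5 ± 25.7 CPM in siCtrl (SD, n = 3) and 97.8 ± 24.3 CPM in siFAM53C (SD, n = 2).

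**Figure D2:**
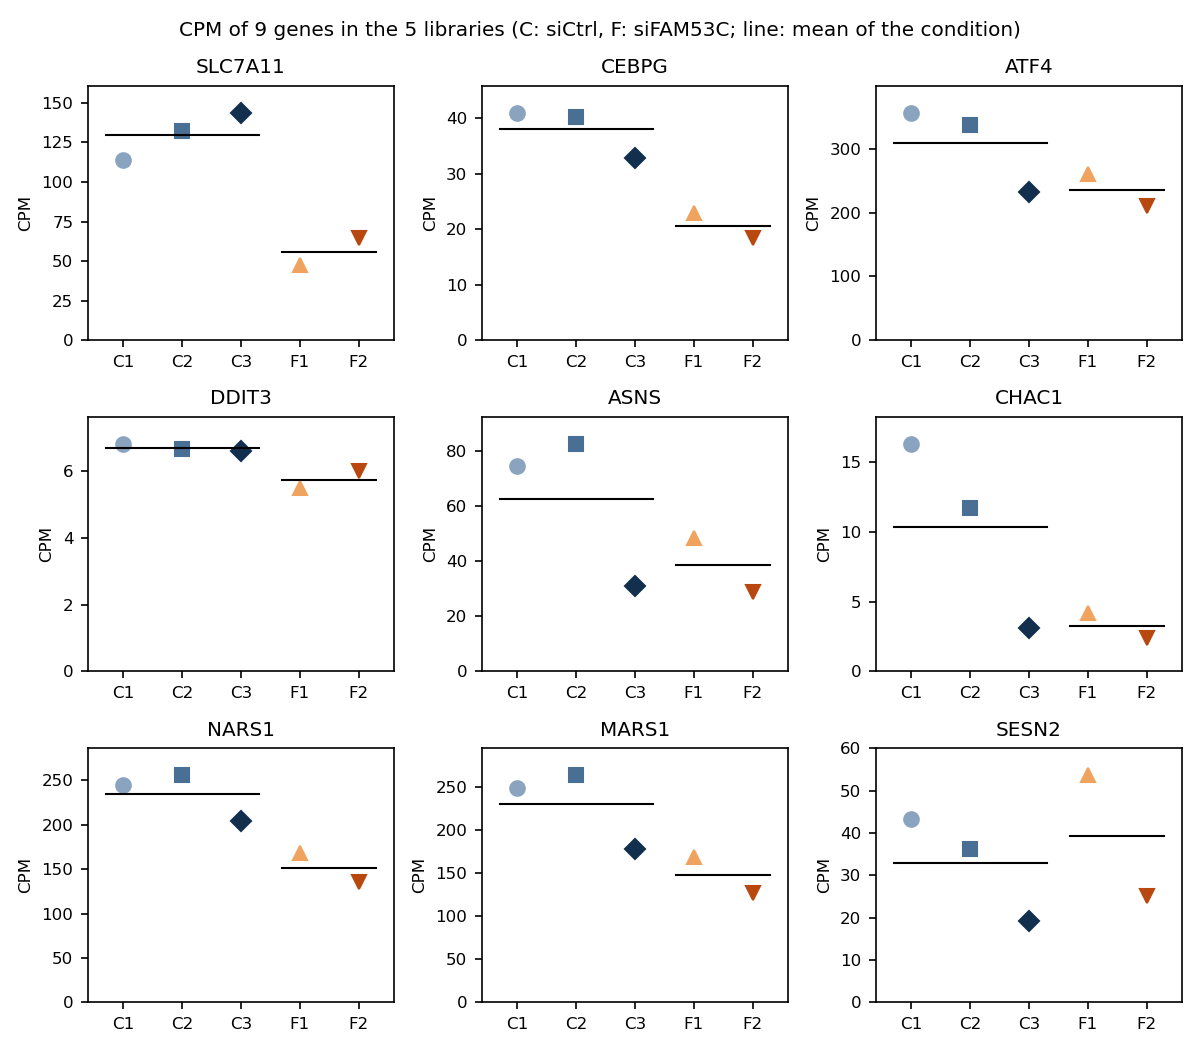
Level in CPM of 9 genes in the siCtrl libraries (C1 to C3) and the siFAM53C libraries (F1 and F2), with a line at the mean of each group and every axis starting at 0. For SLC7A11, CEBPG, DDIT3, NARS1 and MARS1 the groups do not overlap, while for ASNS, CHAC1 and SESN2 the library siCtrl 3 falls among or below the siFAM53C libraries.

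Among the other effectors of the response, CHAC1 showed how far 1 control library could decide a value. CHAC1 breaks down glutathione and is among the most ATF4-dependent transcripts known. It was at 16.3, 11.7 and 3.14 CPM in siCtrl 1, 2 and 3 and at 4.20 and 2.38 CPM in siFAM53C 1 and 2. The fitted difference was −1.66 on the log2 scale (SE 0.70, adjusted p = 0.3058), but siCtrl 3 lay between the siFAM53C libraries. On the 2 sides of the split the difference was −1.69 and −0.39, and it was −1.21 with the split term (adjusted p = 0.01854).

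VLDLR, a lipoprotein receptor and ATF4 target, stood at 18.4, 15.7 and 12.5 CPM against 9.86 and 6.49 CPM. The groups did not overlap, and the fitted difference was −0.93 on the log2 scale (SE 0.26, adjusted p = 0.1073), with −0.78 and −0.94 on the 2 sides of the split and a call with the split term (−0.86, adjusted p = 0.002056). Its annotation shares 1360 exon bases with the opposite strand, and although reads were aligned as reverse-stranded, the strand setting of the counting is not stated in the sources used here. STC2, a secreted glycoprotein, had the next highest level per length after ATF4 (197 ± 19.2 CPM per kb in siCtrl) and a log2 fold change of −0.41 (SE 0.13). It was not called in the model with the condition only (adjusted p = 0.1519), and was called with the split term, by DESeq2 and without siCtrl 3. DDIT4 and SESN2 restrain mTORC1 signalling. DDIT4 stood at 14.1 ± 6.26 CPM in siCtrl and 13.9 ± 7.2 CPM in siFAM53C, so that its groups did not differ beyond their spread. SESN2 was at 43.4, 36.2 and 19.2 CPM against 53.6 and 25.1 CPM, and it was the 1 member called higher with the split term (log2 fold change 0.41, adjusted p = 0.0211), with 0.44 and 0.39 on the 2 sides. Without that term its log2 fold change was 0.26 (SE 0.46) and its groups overlapped.

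The 8 genes of amino acid synthesis had a median log2 fold change of −0.26 and none was called (0 at an unadjusted p under 0.05, where all genes had 10.5% lower and 6.61% higher). Their controls were widely spread. ASNS, which makes asparagine, was at 74.4, 82.4 and 31.1 CPM in siCtrl and at 48.5 and 28.7 CPM in siFAM53C (log2 fold change −0.70, SE 0.50, adjusted p = 0.5752). PSAT1, of the serine pathway, was at 219, 240 and 98.1 CPM against 161 and 92.3 CPM (log2 fold change −0.55, SE 0.47, adjusted p = 0.6512). In both genes siFAM53C 2 was the lowest library and siCtrl 3 the next, so that the groups overlapped. Both were called lower with the split term, ASNS at −0.46 and PSAT1 at −0.33 (adjusted p = 0.02279 and 0.03101), although the difference between siFAM53C 2 and siCtrl 3 alone was small, −0.12 and −0.09.

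PHGDH, the entry enzyme of serine synthesis, was at 184, 161.5 and 114 CPM against 154.5 and 105 CPM (log2 fold change −0.24, SE 0.24, adjusted p = 0.7008). PSPH, which finishes the serine pathway, had a log2 fold change of 0.08 (SE 0.17). The folate enzymes SHMT2 and MTHFD2 had −0.32 (SE 0.20) and −0.29 (SE 0.17), and the proline enzymes ALDH18A1 and PYCR1 had −0.01 (SE 0.10) and 0.02 (SE 0.16). ALDH18A1 was the steadiest of these genes, between 178 and 183 CPM in all 5 libraries.

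The 4 transporter genes showed a different arrangement of the libraries: siFAM53C 2 was below siFAM53C 1 in 0 of 4, and the median difference of siCtrl 3 from siCtrl 1 and 2 was 0.13, above 0. SLC7A11, the light chain of the cystine and glutamate exchanger that feeds glutathione synthesis, fell to 0.432 of its control level. It stood at 114, 132.5 and 143 CPM in siCtrl 1, 2 and 3 and at 47.6 and 64.6 CPM in siFAM53C 1 and 2. The groups did not overlap and lay far apart (log2 fold change −1.21, SE 0.17, adjusted p = 0.008646), with −1.37 and −1.15 on the 2 sides of the split. Without siCtrl 2 or siFAM53C 1 the adjusted p was 0.05992 or 0.05881, at log2 fold changes of −1.20 and −1.01.

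SLC3A2, the heavy chain shared by SLC7A11 and SLC7A5, had a log2 fold change of −0.29 (SE 0.12), and the arginine and lysine transporter SLC7A1 had −0.24 (SE 0.10), both without overlap of the groups. The leucine transporter SLC7A5 had −0.24 (SE 0.19) with overlap. These 3 were not called in the model with the condition only and were called lower with the split term. Under that term all 4 transporters were called lower, against 10.7% of all genes.

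The last group, 11 cytosolic tRNA synthetases and the tRNA exporter XPOT, had a median log2 fold change of −0.19, and siCtrl 3 was the lowest control for all 12. No gene of the group was called (before adjustment 4 lower, 0 higher at p under 0.05, against 10.5% and 6.61% of all genes). NARS1, which charges asparagine tRNA, was at 244.5, 256 and 204 CPM in siCtrl and at 168 and 135.5 CPM in siFAM53C. This was the nearest of the group to the threshold, at −0.63 on the log2 scale (SE 0.15, adjusted p = 0.06298), with −0.57 and −0.59 on the 2 sides of the split. MARS1, the methionine enzyme, was at 248.8, 264 and 178 CPM against 169 and 127 CPM (log2 fold change −0.64, SE 0.20, adjusted p = 0.1562). Its 2 sides gave −0.60 and −0.49. The exons of MARS1 face 874 bases of exon on the opposite strand.

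IARS1 and XPOT, at −0.45 (SE 0.14) and −0.30 (SE 0.11), also had groups that did not overlap. With NARS1 and MARS1 they were the 4 of the group called lower with the split term, against 10.7% of all genes. The synthetases of alanine, glycine, serine, threonine, tryptophan, tyrosine and of glutamate and proline (AARS1, GARS1, SARS1, TARS1, WARS1, YARS1 and EPRS1) lay between −0.21 and −0.10, with overlap and no call in either model. CARS1 held only 25, 60, 11, 16 and 326 counts in the 5 libraries, the last being siFAM53C 2, and its log2 fold change of 2.18 (SE 1.35) became −1.39 without that library. At 0.582 CPM per kb in siCtrl the gene was the lowest of the 11 member synthetases, and VARS1, the valine enzyme and not a member, was listed at 0.127 CPM or less. Every cell needs these enzymes, so the listed values may not be the genes' levels. No direction is read from CARS1, although its value enters the counts and medians given above for the lists that hold it.

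**Figure D3:**
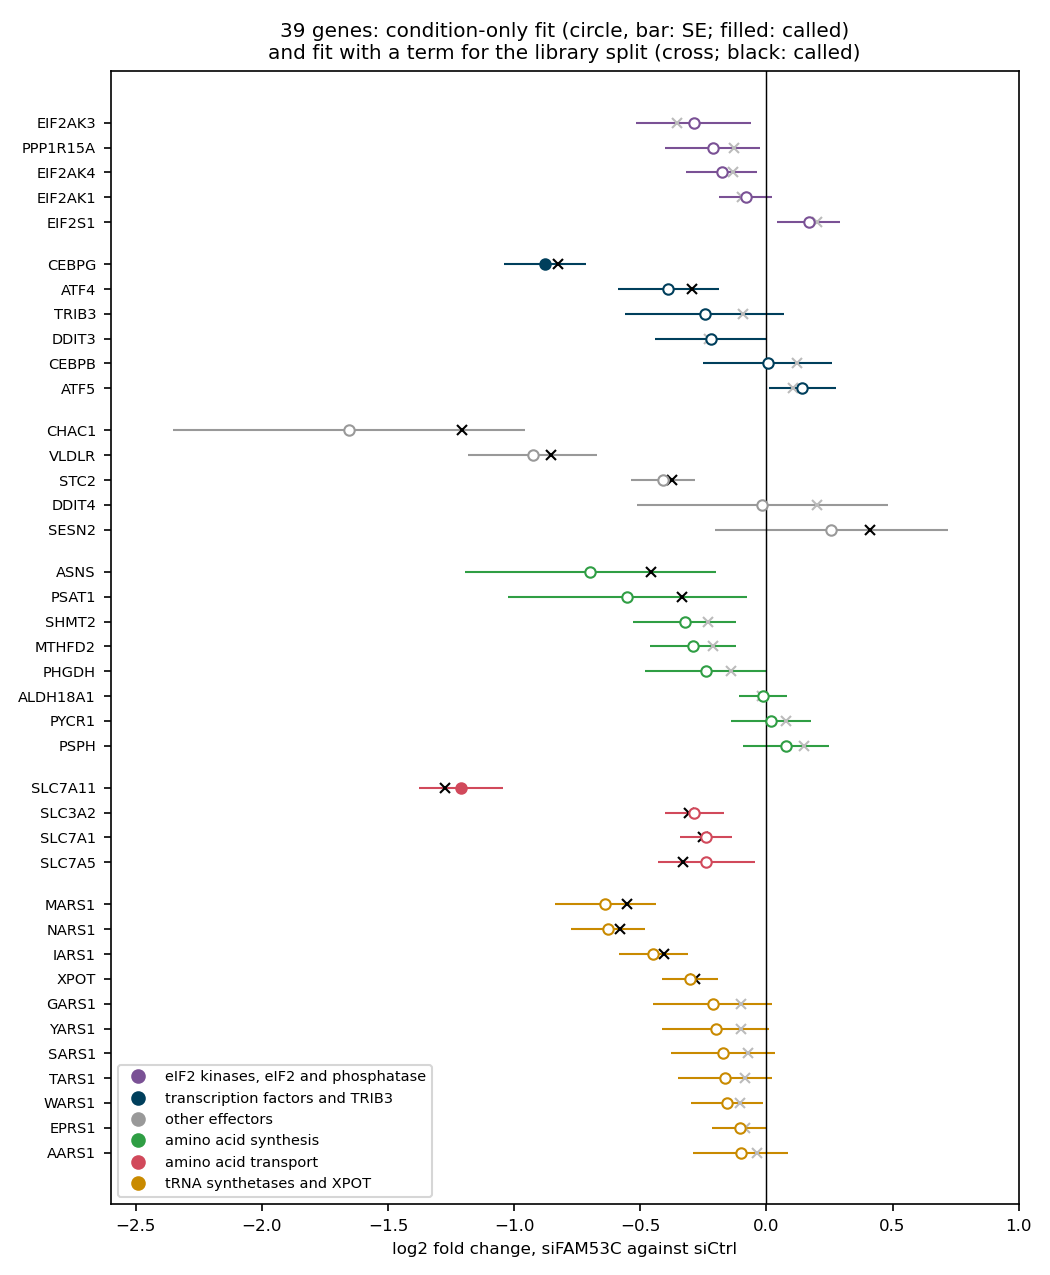
Log2 fold change of siFAM53C against siCtrl for 39 genes by role, with circles and bars for the value and SE of the model with the condition only (filled where called) and crosses for the model with a term for the library split (black where called). Only SLC7A11 and CEBPG are filled, 15 genes have a black cross to the left of 0 and SESN2 has a black cross to the right, and CARS1 (2.18, SE 1.35) is left out.

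Among genes of the same pathways that are not members, other ATF4 targets had a median near that of the 40. Of 25 such genes, 21 were tested, with a median of −0.24, and 1 fell, against 3.47% of all genes. This was ERO1A, an oxidase of the endoplasmic reticulum, at 160, 171 and 172 CPM against 103 and 102 CPM (log2 fold change −0.71, SE 0.10, adjusted p = 0.009163). With the split term 5 were called lower, against 10.7% of all genes. Among them was CTH, which makes cysteine from cystathionine (log2 fold change −1.44, adjusted p = 0.01163). CTH, at 6.71, 5.44 and 2.52 CPM against 1.59 and 1.49 CPM, was at −1.67 on the log2 scale without the term (SE 0.46, adjusted p = 0.1053). JDP2 and ATF3, both factors of the AP-1 family, had −0.83 (SE 0.36) and 1.10 (SE 0.51) and were not called.

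The synthetases outside the 40 did not share the lower median. For the other cytosolic synthetases and their scaffold, 11 of 12 tested, the median was −0.02 and 0 were called (before adjustment 1 lower, 1 higher at p under 0.05), KARS1 having the lowest value at −0.48 (SE 0.12, adjusted p = 0.08613). For the mitochondrial synthetases, 16 of 17 tested, the median was 0.01 and 0 were called (0 lower and 1 higher before adjustment). Over all genes 3.47% were called lower and 0.489% higher in this model, and 10.5% and 6.61% before adjustment. With the split term, each of these lists had 1 gene called lower, KARS1 and CARS2, and 1 called higher, HARS1 and MARS2. Over all genes 10.7% were called lower and 6.76% higher in that model. None of these comparisons between lists was tested.

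The neighbouring arms of the unfolded protein response, driven by ATF6 and IRE1, held more called genes. Of 14 genes 13 were tested, 4 fell (all genes 3.47%) and the median was −0.52. HYOU1, a chaperone of the endoplasmic reticulum, was at 321, 284 and 373 CPM against 68.8 and 99.9 CPM (log2 fold change −1.95, SE 0.20, adjusted p = 0.002359). HSPA5 (BiP), ATF6 and MANF had −0.87, −0.67 and −0.61 (adjusted p = 0.03467, 0.0213 and 0.0495). Below 0 were 11 of the tested genes, and 2 were above. Those 2 were ERN1, which encodes IRE1, at 0.42 (SE 0.24) and DNAJB9 at 0.11 (SE 0.21), neither of them called. Here the library split ran the other way, the median difference of siCtrl 3 from siCtrl 1 and 2 being 0.26 and siFAM53C 2 being below siFAM53C 1 for 0 of 13. With the split term 11 of these genes were called lower, against 10.7% of all genes. XBP1 was listed at 0 in all 5 libraries, and as with CARS1 and VARS1 the listed value may not be the gene's level. These medians are descriptions of the lists, with no test between them.

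**Figure D4:**
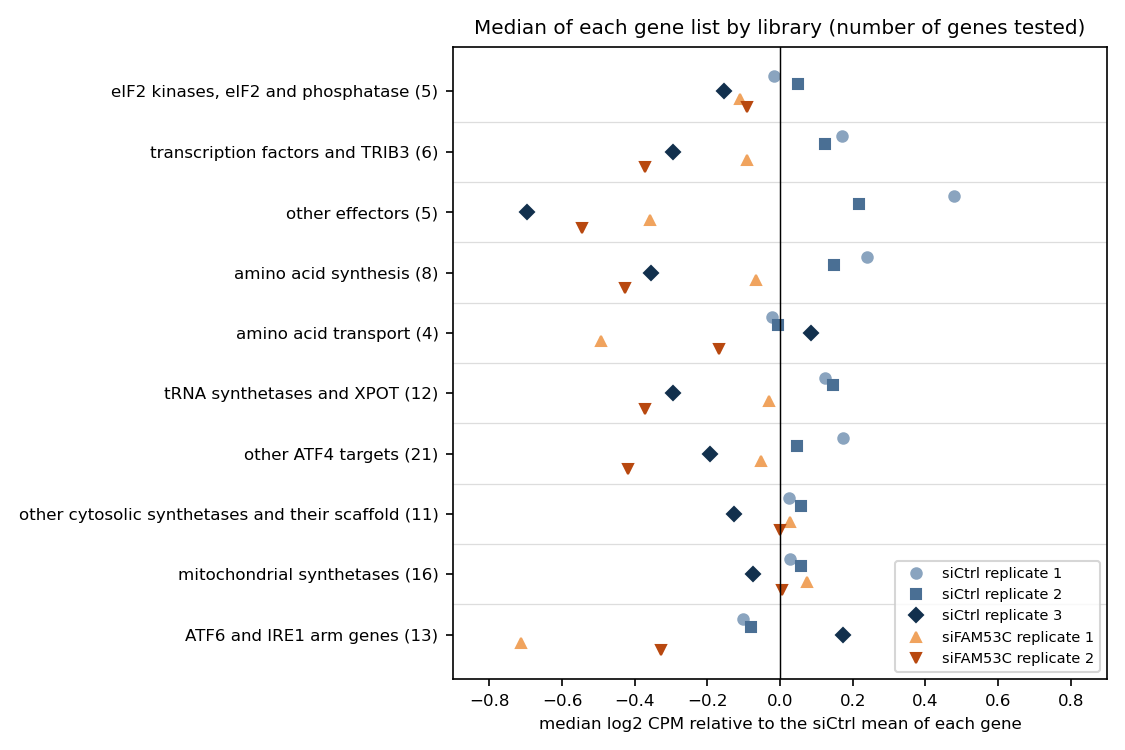
Median over the tested genes of each list of log2 CPM relative to each gene's siCtrl mean, 1 symbol per library (circles, squares and diamonds for siCtrl 1 to 3, triangles for siFAM53C 1 and 2). For 5 of the 6 role groups of the 40 genes the siCtrl 3 symbol lies to the left of the other controls, whereas for amino acid transport and for the ATF6 and IRE1 arm genes it lies to the right (median difference 0.13 and 0.26) and both siFAM53C libraries lie below all controls.

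Per length, the members spanned a wide range of levels in siCtrl. After ATF4 and STC2 came GARS1 (136 ± 33.7 CPM per kb), SLC7A5 (119 ± 14.6), SLC3A2 (117 ± 2.93) and SHMT2 (111 ± 23.7; SD, n = 3 for each), neighbours whose levels did not differ beyond their spread. The lowest apart from CARS1 were VLDLR (1.69 ± 0.321), EIF2AK3 (3.90 ± 0.906) and CHAC1 (6.81 ± 4.38 CPM per kb). The called genes were in the lower part of the order, SLC7A11 at rank 32 of 40 (13.5 ± 1.54 CPM per kb) and CEBPG at rank 33 (10.2 ± 1.21 CPM per kb).

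The heptamer GACAAGA, present in the 3′ UTR of FAM53C and taken up because an earlier analysis of these data had turned to it, was also looked for in the longest annotated 3′ UTR of each member. It was found in 5 of 40 (12.5%), against 1400 of 12075 tested genes with such a UTR (11.6%). SLC7A11 was 1 of the 5, with the site at chr4:138167184-138167190 on the minus strand (GRCh38), printed here because the gene was called: cagcctagggGACAAGAgcgcgagact. The others were EIF2S1, MTHFD2, SLC7A5 and MARS1, and the median log2 fold change was −0.29 for the 5 and −0.21 for the 35 without it. Over all tested genes the medians were −0.18 with the heptamer and 0.02 without. As the heptamer came from an earlier analysis of these data, these medians are no independent result. Its part in these differences was not tested.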

How the data were processed

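The authors trimmed the paired reads with cutadapt 2.10, aligned them with HISAT2 to hg38, set to reverse strandedness, and counted them per gene with featureCounts, as the methods and the submitters' processing notes give it. The deposited values are raw counts, neither normalized nor filtered. The annotation release and the strand setting of the counting were not given in the sources used here. Groups came from the sample labels.

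Symbols and positions were taken from GENCODE release 44 on GRCh38 (56105 of 64252 identifiers matched). The tests ran in edgeR 4.0.16 (R 4.3.3). Low genes were removed by filterByExpr at a minimum count of 10 and a minimum total of 15, libraries were scaled by TMM, and a robust quasi-likelihood model held the condition alone, with Benjamini-Hochberg adjustment over 15341 genes (threshold 0.05). CPM uses TMM-scaled library sizes, log2 CPM a prior count of 2, and ± is the SD. The SE given with an edgeR log2 fold change is its absolute value divided by the square root of the test's F statistic. It is therefore derived from the test and is not a separately fitted standard error. Between 19260124 and 25615415 counts per library limit the precision of low genes. DESeq2 1.42.0, limma 3.58.1 (voom), other factors and filters, left-out libraries, replicate blocks and the split term were alternatives. The code was tested on simulated data.

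The 40 genes, the other lists, the heptamer and the split term were chosen with earlier results of these data known. Described in full were called members, 10 core members, and members without overlap beyond 0.5 in log2 fold change, the others by value. Of the other lists, called genes and at most the 3 furthest from 0 were named. Genes called with the split term, and ERN1 and DNAJB9, were named after their values were seen.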

Additional observations from a re-analysis of the deposited data

How the results depend on the processing

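SLC7A11 and CEBPG were the only members called under limma-voom, RLE factors, library totals only and the stricter filter (CPM of at least 1 in at least 2 libraries), as in the reported model, and the member median stayed below 0 under every alternative (−0.14 to −0.38). Counts depended on the model. Members lower were 2 as reported, 8 with DESeq2, 6 with no filter, 15 with the split term and 0 to 10 with 1 library left out, the 10 being without siCtrl 3, where 5.91% of all genes were lower. Members higher were 0, and 1 with the split term. All genes lower were 533 as reported, 890 with DESeq2, 961 with no filter, 1636 with the split term and 157 to 886 with 1 library left out. All genes higher were 75, and 257, 375, 1037 and 6 to 414 in the same order, and 121 with library totals only. The cause was not tested.

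With the replicate number as a block, by titles, 11 members and 856 genes were lower and 355 higher. With the block by column names, 8 members and 1350 genes were lower and 642 higher. Deviations of the paired libraries correlated at 0.169 and −0.285 by titles and at 0.169 and 0.371 by column names. The deviations of the 2 siFAM53C libraries from their mean mirror each other, so these values are not independent. With only 2 pairs the numbers were not taken to pair the libraries. ASNS and PSAT1, called with the split term, were not called with either block (adjusted p = 0.08287 and 0.06488 for ASNS, 0.1751 and 0.1022 for PSAT1), while STC2 was called with both and SLC7A5 with the block by column names.

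Some fold changes turned sign, among them values near 0 and the 2.18 of CARS1. With library totals only, DDIT4 was at 0.0609 and ALDH18A1 at 0.0573. With the split term DDIT4 was at 0.20. With the block by titles CEBPB was at −0.22, SESN2 at −0.10, PSPH at −0.0677 and PYCR1 at −0.10, and with the block by column names DDIT4 was at 0.17. With 1 library left out the ranges were −0.28 to 0.23 for CEBPB, −0.57 to 0.0144 for TRIB3, −0.68 to 0.43 for DDIT4, −0.40 to 0.70 for SESN2, −0.55 to 0.00919 for PHGDH, −0.0558 to 0.18 for PSPH, −0.12 to 0.15 for PYCR1, −0.57 to 0.0225 for SLC7A5, −0.38 to 0.12 for AARS1, −1.39 to 3.12 for CARS1 and −0.38 to 0.016 for TARS1. None of these genes was called in the reported model.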
